A study of Mus musculus with 15 samples.

Results

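The Gfap and Thbs4 astrocytes of the mouse dorsal hippocampal formation (dHF) were 99 nuclei of 133236 with at least 500 detected genes. They were chosen by UMI counts, a UMI being a counted RNA molecule. A nucleus was a member with at least 3 UMIs of Slc1a2 and Slc1a3 together, at least 2 of Gfap, at least 1 of Thbs4, at most 1 of Gad1 and Gad2 together and at most 1 of Slc17a7. These genes therefore describe the nuclei and were not tested. Single-nucleus RNA sequencing was run on 15 wild-type adult female C57BL/6J mice, with 4 bilateral tissue punches pooled per mouse, so that each mouse gave 1 library and is the replicate. There were 6 nulliparous (NP) virgin females, 4 control RE dams (reproductive experience: pregnancy, birth, lactation and weaning of the pups; ControlPP in the labels) and 5 stress RE dams (StressPP), which in addition went through daily separation from the pups with little nesting material late in the postpartum period. NP mice were matched to the dams in age, and no mouse carried a transgene. The punches were enriched for the dHF but also took in neighbouring tissue.

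Astrocytes clear glutamate and potassium from around synapses, supply neurons with metabolites and contact blood vessels. GFAP, the intermediate filament protein of astrocytes, is most abundant in the fibrous astrocytes of white matter and in astrocytes at the brain surface, the ventricle walls and around injury. Thrombospondin-4, the product of Thbs4, belongs to a family of secreted matrix proteins that promote synapse formation and are known from astrocytes. EAAT2 and EAAT1, the products of Slc1a2 and Slc1a3, are the glutamate transporters of astrocytes. In GRCm38 coordinates, Gfap lies on chromosome 11 at 102887336 to 102900912 on the minus strand, and Thbs4 on chromosome 13 at 92751590 to 92794818, also on the minus strand.

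Most members lay close to the limits of the rule. Gfap had 2 UMIs in 58 nuclei, 3 in 23 and 4 or more in 18, with a highest value of 19. Thbs4 had 1 UMI in 55, 2 in 20 and 3 or more in 24, with a highest value of 17. Both genes were at their lowest allowed value in 31 nuclei, and 17 nuclei had at least 3 Gfap and at least 2 Thbs4 UMIs. The glutamate transporter sum was far from its limit, with a median of 37 UMIs, a range of 4 to 158 and 5 nuclei under 10. Just outside the rule, 638 nuclei had Gfap at 2 or more but no Thbs4, 190 had Thbs4 but only 1 Gfap UMI, and 11 met both astrocyte limits but exceeded a neuron limit. Among the 24990 nuclei that passed the transporter and neuron limits, Thbs4 was detected in 13.4% of those with at least 2 Gfap UMIs and in 3.30% of those with fewer. Only 6734 nuclei passed a stricter astrocyte gate, with at least 10 transporter UMIs that made up at least 0.5% of all. Among these, 538 had at least 2 Gfap UMIs, 740 had Thbs4 and 80 had both. The 2 percentages therefore also reflect nuclei not gated as astrocytes. The members had a median of 3991 UMIs per nucleus (1726 to 14843) and 2014 genes, and 447821 UMIs in all.

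**Figure D1:**
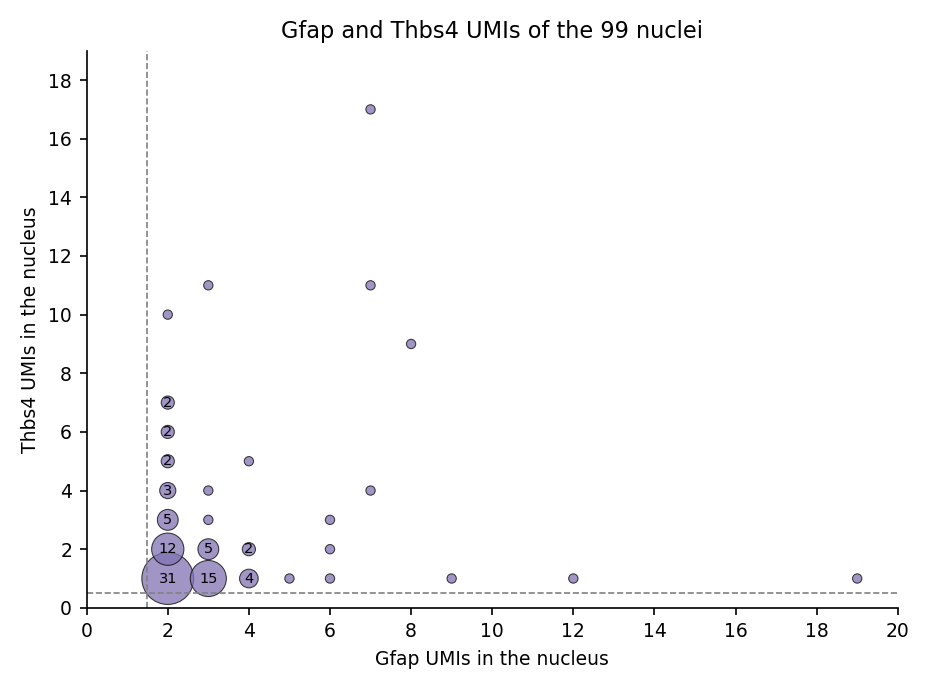
Thbs4 UMIs (vertical axis) against Gfap UMIs (horizontal axis) in each of the 99 nuclei; the area of a circle and the number in it give the nuclei at that pair of values, circles without a number hold 1 nucleus, and dashed lines mark the limits. The 31 nuclei at 2 Gfap UMIs and 1 Thbs4 UMI form the largest circle, while 1 nucleus reaches 19 Gfap UMIs and 1 other nucleus 17 Thbs4 UMIs.

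Per mouse, 5789 to 12738 barcodes were deposited, with 40602582 to 96211264 UMIs in all. Of all barcode sequences, 2211 occurred in more than 1 library; 3 members had such a sequence, and no sequence was shared by 2 members. The 2 thresholds on Gfap and Thbs4 were met by 80 of 6734 astrocyte-gated nuclei, that is 1.19% (95% Wilson interval 0.956 to 1.48), at a median depth of 3512 UMIs. In nuclei that should lack both genes they were met by 1 of 18222 oligodendrocyte-gated nuclei (0.00549%, interval 0.000969 to 0.0311, median 2604 UMIs) and by 4 of 8062 nuclei with at least 5 Slc17a7 UMIs (0.0496%, interval 0.0193 to 0.128, median 19042 UMIs). The Gfap threshold alone was met by 7.99% of astrocyte-gated and 0.0659% of oligodendrocyte-gated nuclei, and that of Thbs4 by 11.0% and 0.192%. Both genes belong to the rule, so these shares describe the nuclei. They cannot tell whether a single Thbs4 UMI in a member came from its own nucleus or from free RNA. The intervals in this paragraph cover counting error only.

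The label of the cells was checked on 18 pan-astrocyte genes that the rule did not use. Their summed level was 6688 CPM (UMIs of these genes per 1000000 UMIs of all genes) in the members, 9771 CPM in the other astrocytes and 248 CPM in oligodendrocyte-gated nuclei. In single mice it ran from 4869 to 9718 CPM in members and from 8373 to 11546 CPM in other astrocytes, so that the ranges overlapped. Other astrocytes were 5536 nuclei with at least 10 UMIs of Slc1a2 and Slc1a3, which also made up at least 0.5% of their UMIs, at most 1 Gfap UMI, no Thbs4, at most 1 Slc17a6 UMI and the same neuron limits, and their median depth was 3494 UMIs. Aqp4, the water channel of astrocyte endfeet, stood at 295 CPM against 249, Gja1, the gap junction protein connexin 43, at 357 against 340, and Glul, glutamine synthetase, at 440 against 429. For these 3 genes the edgeR adjusted P of the comparison described next was 0.676, 0.879 and 0.936. Of the 18 genes, 6 were lower in members in that comparison and none was higher. Of the rule's own genes, Slc1a2 stood at 8052 CPM in members and 8246 in other astrocytes, and Slc1a3 at 1795 and 2256. Gfap was at 681 and 44.5 CPM and Thbs4 at 525 and 0 CPM, as the rule sets. In the members of single mice Gfap ran from 423 to 1424 CPM and Thbs4 from 162 to 911 CPM over 13 mice.

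Markers of other cells were present in part of the nuclei. The 10 oligodendrocyte genes summed to 1697 CPM in members and 720 CPM in other astrocytes, against 23001 CPM in oligodendrocyte-gated nuclei; 13 of the 99 members held at least 5 of their UMIs, and the level in single mice ran from 300 to 7822 CPM, with the highest in stress RE mouse 77. Neuron genes summed to 1673 against 1424 CPM, oligodendrocyte precursor genes to 355 against 224, microglia genes to 201 against 150, endothelial or mural genes to 183 against 83.0, and choroid plexus genes to 80.4 against 72.8. Vascular leptomeningeal genes were at 26.8 against 28.5 CPM. The 10 ependymal genes, which mark the ciliated lining of the ventricles, stood at 42.4 against 15.2 CPM, and no member had more than 3 of their UMIs. Neural stem cell or progenitor genes stood at 686 CPM in members and 720 CPM in other astrocytes. In 77 members the oligodendrocyte, microglia, endothelial or mural and choroid plexus lists each had under 5 UMIs and the ependymal list under 3. A high doublet score was found in 13 members. The part of the markers of other cells in the results below was not tested beyond the comparisons that left out nuclei over the limits just given or with a high doublet score. The neuron and oligodendrocyte precursor lists set no limit there. At least 5 neuron list UMIs were held by 53 of the 99 members (53.5%) and by 49.6% of other astrocytes, and such nuclei stayed in.

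The first comparison asked how the Gfap and Thbs4 astrocytes differ from other astrocytes of the same mice. UMIs were summed per mouse and type and tested with edgeR's quasi-likelihood test, with the mouse as a block, scaled by total UMIs, and Benjamini-Hochberg adjusted P. Only NP mouse 73 and control RE mouse 87 had at least 10 members. In these 2 mice, 5 of 9687 genes tested were higher in members (0.0516%) and 13 were lower (0.134%). Both counts were larger without members of high doublet score, as given in the last section. The 5 genes that were higher were Nrg1, Igfbp5, Tmem132b, Gfpt2 and the non-coding RNA gene Gm48619, whose 14 UMIs came from 2 nuclei. In mice 73 and 87 Gm48619 was at 6.06 and 1.70 CPM in other astrocytes, against 93.1 and 108 CPM in members. It thus entered the test through the members, in which it was high, and its call is a description. In the other mice with at least 3 members it had no member UMI, and Gfpt2 had none in most of them. The genes that were lower were Trpm3, Slc6a11, Mgat4c, Luzp2, Nhsl1, Ptch1, Erbb4, Kcnd2, Pde7b and the non-coding RNA genes B230323A14Rik, Gm29514, Gm29683 and Gm12239; some of these 18 genes lie outside the rule for named genes and are given to complete the counts.

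With all 13 mice that had at least 3 members (5 NP, 4 control RE and 4 stress RE), 192 of 5920 genes were higher in members (3.24%) and 179 were lower (3.02%). The median log2 fold change over all genes tested was 0.09. This lower limit and the scaling were chosen after the data had been seen. With TMM scaling the split was 81 higher and 386 lower in 13 mice, with a median of -0.15, and 8 higher and 50 lower in 2 mice. Of the called genes, 75 of the 192 and 114 of the 179 passed in every one of the 13 fits that left out 1 mouse, and none changed direction. The filter asked for 25.5 CPM in at least 13 of the 26 sums. Of the called genes, 147 of the 192 and 172 of the 179 reached this in the other astrocytes alone. The remaining 45 higher genes entered the test with the help of the members, in which they were high. In the 80 members that also passed the transporter gate of the other astrocytes, 111 genes were higher and 111 lower.

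Igfbp5 and Nrg1 had the largest log2 fold changes among the called genes that the rule names as higher in members. Nrg1 encodes neuregulin-1, a growth factor of the EGF family that binds ErbB receptors, and lies on chromosome 8 at 31814551 to 32884029. Its level in members ran from 113 CPM in the lowest mouse through a median of 1466 to 2237 in the highest, against 87.2, 211 and 327 CPM in other astrocytes. The members were above the other astrocytes in 12 of 13 mice, and control RE mouse 88 was the exception with 113 against 212 CPM. The log2 fold change was 2.60 ± 0.15 (SE of the edgeR fit, n = 13 mice, edgeR adjusted P = 7.89e-60). The SE of the fit, here and below, and the adjusted P with it are not a measure of the spread between mice. For Nrg1 that spread was wide, from 113 against 212 CPM in control RE mouse 88 to 1806 against 109 CPM in stress RE mouse 43. Nrg1 UMIs were found in 65 of 99 members and in 39.3% of other astrocytes.

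Igfbp5 encodes a secreted binding protein of the insulin-like growth factors and lies on chromosome 1 at 72857932 to 72874884. It was at 129 CPM in the lowest mouse, 340 at the median and 899 in the highest, against 47.1, 53.2 and 93.6 CPM in other astrocytes. The ranges did not overlap and members were higher in 13 of 13 mice. The log2 fold change was 2.63 ± 0.21 (edgeR adjusted P = 2.21e-32). Tmem132b, a transmembrane protein gene, was higher in 12 of 13 mice, with a median of 451 against 168 CPM and a log2 fold change of 1.25 ± 0.17 (edgeR adjusted P = 1.74e-10).

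The other genes named among the largest increases were lower in level and had no UMI in the members of some mice. Arhgap6, a GTPase-activating protein, was at 163 against 31.5 CPM with all mice pooled, the microRNA host gene Mir670hg at 132 against 29.7, and Garnl3, a GAP domain protein, at 212 against 48.3 CPM. Kcnk10, the potassium channel TREK-2, was at 179 against 49.0 CPM, and Creb5, a transcription factor of the CREB family, had a median of 37.4 CPM over the 13 mice against 24.2. Rasgef1b, a Ras guanine nucleotide exchange factor, was at 89.3 against 28.2 CPM and the antisense gene Gm28376 at 84.9 against 21.6. Of these 7 genes, Garnl3 and Kcnk10 passed the filter from the other astrocytes alone, with log2 fold changes of 2.05 and 1.79. Arhgap6, Mir670hg, Creb5, Rasgef1b and Gm28376 passed it only with the members' own sums counted, so their values are a description. Members were higher in 8 of 13 mice for Creb5, 9 for Gm28376 and Rasgef1b, 10 for Arhgap6, Garnl3 and Kcnk10, and 12 for Mir670hg.

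**Figure D2:**
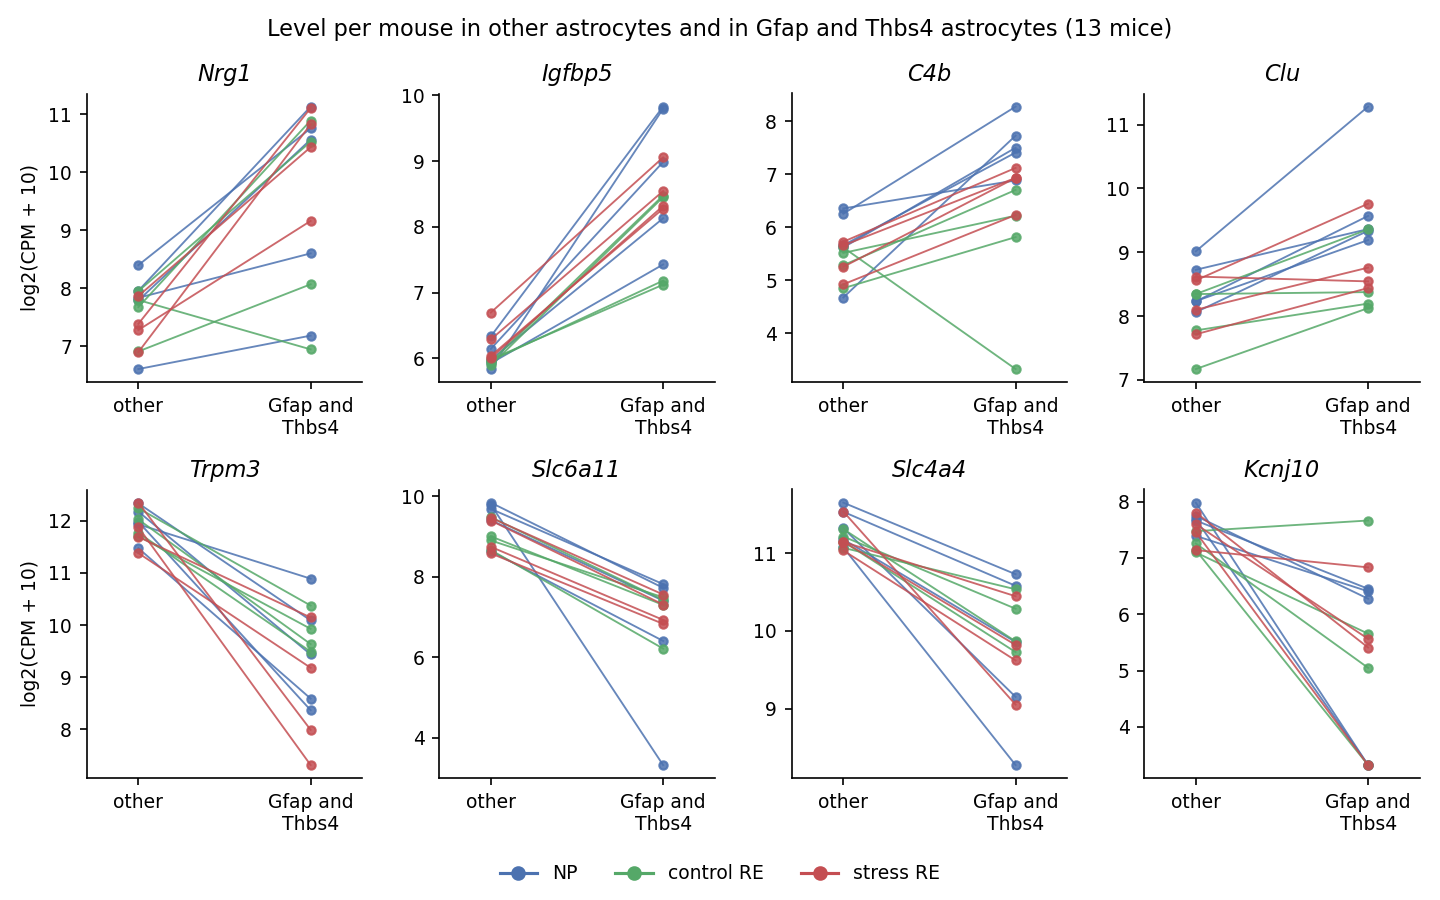
Level of 8 genes in other astrocytes and in Gfap and Thbs4 astrocytes of the same mouse, as log2(CPM + 10); each line joins the 2 values of 1 of 13 mice and colours give the group. Nrg1 is higher in members in 12 mice and Igfbp5 in 13, while Trpm3, Slc6a11 and Slc4a4 are lower in members in all 13.

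Trpm3 was lower in every mouse. It encodes a calcium-permeable cation channel and lies on chromosome 19 at 22139046 to 22995410. The members had 149 CPM in the lowest mouse, 709 at the median and 1889 in the highest, and other astrocytes had 2660, 3905 and 5214. The ranges did not overlap, and the log2 fold change was -2.42 ± 0.14 (SE of the edgeR fit, n = 13 mice, edgeR adjusted P = 4.64e-64).

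Slc6a11 encodes the GABA transporter GAT-3, and lies on chromosome 6 at 114131241 to 114249952. Its level was 0 CPM in the lowest mouse, 149 at the median and 216 in the highest, against 374, 666 and 911 CPM in other astrocytes. The ranges did not overlap, members were lower in 13 of 13 mice, and the log2 fold change was -2.13 ± 0.20 (edgeR adjusted P = 2.02e-22). No Slc6a11 UMI was found in 64 of the 99 members, while 9 had 3 or more. Of the 5536 other astrocytes, 1533 had 3 or more, so the fold depends on the mix of astrocytes in the reference. Slc6a11 is part of the gates of the 2 subsets described below and was not tested against them.

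Of the non-coding RNA genes among the largest decreases, B230323A14Rik had 1 UMI in the members of the 13 mice. Its level there was 54.7-fold below that of other astrocytes, with an exact 95% counting interval of 9.80 to 2160. A330076C08Rik and Gm29683 had 2 UMIs each and were 22.0-fold (6.10 to 182) and 18.5-fold (5.11 to 153) lower. These folds depend on the reference, in which subsets gated on Gldc or on Slc6a11 (described below) differed. B230323A14Rik was at 2.23 CPM in members, 1.75 in Gldc-gated and 349 in Slc6a11-gated astrocytes, and Gm29683 at 4.47, 4.82 and 222 CPM, with members close to the Gldc subset in both. A330076C08Rik was at 4.47, 26.9 and 241 CPM. Gm29514 was at 17.9 against 95.9 CPM and Gm41492 at 13.4 against 59.5 CPM. B230323A14Rik, Gm29514, Gm12239 and Gm28376 are annotated as antisense genes, and whether the counting used the strand is not given in the sources used here, so their reads and those of overlapping genes cannot be told apart if it did not.

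The remaining genes named by this rule code for proteins. Nnat, the proteolipid neuronatin, was at 22.3 CPM in members and 96.6 CPM in other astrocytes and was lower in 13 of 13 mice. Trib2, a Tribbles pseudokinase, was at 15.6 against 52.9 CPM and Rbm20, a splicing regulator, at 11.2 against 51.3. Slc13a5, a citrate transporter, had 3 UMIs in members and was 4.73-fold lower with an exact 95% counting interval of 1.61 to 23.0; its call was lost without NP mouse 31 or 73, control RE mouse 66 or 87 or stress RE mouse 75, and without NP mouse 37 it fell below the filter. Mgat4c, a glycosyltransferase-like gene, was at 226 against 815 CPM, Luzp2, a leucine zipper protein gene, at 1047 against 2524, and Nhsl1 at 326 against 1005 CPM.

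Of 20 genes for the handling of transmitters and ions, 16 were tested in 13 mice, 9 were lower, 7 did not pass, none was higher, and their median log2 fold change was -0.68 beside 0.09 over all genes. Over all genes tested, 3.24% were higher and 3.02% lower, and the counts of every list below stand beside these shares. Slc7a10, the transporter of small neutral amino acids known as Asc-1, was at 71.5 against 194 CPM, and Kcnj10, the inwardly rectifying potassium channel Kir4.1, at 55.8 against 177 CPM. Slc4a4, a sodium bicarbonate cotransporter, had members between 300 and 1687 CPM and other astrocytes between 2087 and 3202 CPM, so that the ranges did not overlap. Its log2 fold change was -1.31 ± 0.13 (edgeR adjusted P = 1.05e-19). The glycine transporter gene Slc6a9, the metabotropic glutamate receptor gene Grm3 and the GABA-B receptor subunit gene Gabbr2 were also among the lower genes of the list. Slc6a9 rested on 6 UMIs in members and passed in 10 of the 13 fits that left out a mouse, and Grm3 had an adjusted P of 0.0565 in the 80 gated members.

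Pan-astrocyte genes outside the rule split into a group that was lower and a larger group that did not pass. Of 18, all tested, 6 were lower (among them Slc4a4, Gjb6, Slc39a12, Acsbg1 and Fgfr3) and none was higher, with a median of -0.25. Over all genes tested 3.02% were lower. Gjb6 (connexin 30), Acsbg1 (a fatty acyl-CoA synthetase) and Fgfr3 (a fibroblast growth factor receptor) lost the call in the 80 members that also passed the transporter gate, with adjusted P of 0.192, 0.0918 and 0.191. Without the members that held other cell types' genes, Gjb6 and Fgfr3 also lost it (0.0815 and 0.0934).

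Genes listed for fibrous or white matter astrocytes moved in both directions. Of 18 listed, 9 had enough UMIs to be tested, 4 were higher, 2 were lower and the median was 0.18. The shares over all genes tested were 3.24% higher and 3.02% lower. Besides Igfbp5, C4b, a complement component, was at 112 against 33.9 CPM with a log2 fold change of 1.77 ± 0.30 (edgeR adjusted P = 6.44e-07). It was higher in 12 of 13 mice, and no C4b UMI was found in the members of control RE mouse 88. C4b has a near-identical neighbouring gene, C4a, so its level is uncertain. Clu, the secreted chaperone clusterin, was at 545 against 278 CPM and Id3, an inhibitor of DNA binding, at 118 against 53.1 CPM. C4b and Id3 did not pass the filter from the other astrocytes alone, so that being high in members brought them into the test. Their values and the count of 4 higher genes are thus a description. Igfbp5 and Clu passed the filter from the other astrocytes alone. The log2 fold changes of Clu and Id3 were 0.99 ± 0.16 and 1.24 ± 0.29 (edgeR adjusted P = 9.75e-08 and 6.23e-04). The lower genes were Itpkb, an inositol trisphosphate kinase, at 73.7 against 151 CPM and Itih3, an inter-alpha-trypsin inhibitor heavy chain, at 31.3 against 83.8. Cd44, Myoc and Vim, classical genes of this list, fell below the filter and were at 33.5 against 8.73, 42.4 against 8.07 and 8.93 against 5.24 CPM. They were picked from the untested genes of the list, outside the rule for named genes, and are given without a test.

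Genes of regional astrocyte types were also compared. Of 9 listed for telencephalic astrocytes, 8 were tested and 1, Nwd1, was lower, with a median of -0.09; its adjusted P was 0.300 without the members that held other cell types' genes. Of 9 listed for non-telencephalic astrocytes, 5 were tested, 3 (Slc6a11, Lgr6 and Slc6a9) were lower, and the median was -1.90. Lgr6, a receptor for R-spondins, rested on 5 UMIs, and without the members that held other cell types' genes its adjusted P was 0.178 and that of Slc6a9 0.129. Gldc, a glycine cleavage enzyme listed for telencephalic astrocytes, was at 335 against 312 CPM (edgeR adjusted P = 0.594).

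The reference astrocytes were themselves of several kinds, so the members were set against 2 subsets. Of the other astrocytes, 1117 passed a Gldc gate (Gldc at 2 or more UMIs, Slc6a11 at most 1) and 1533 a Slc6a11 gate (3 or more UMIs). Among the 99 members, 28 would have met the Gldc gate and 9 the Slc6a11 gate. Against the Gldc-gated astrocytes 95 genes were higher and 109 lower, and against the Slc6a11-gated astrocytes 303 and 251. Of 1661 genes tested against both, 82 were higher and 72 lower against each. Nrg1 had log2 fold changes of 2.54 and 3.23 against these 2 subsets, Igfbp5 of 2.72 and 3.19, and Clu of 0.99 and 1.46. Trpm3 was lower against both, with -1.43 and -3.20, as were Slc4a4 (-0.90 and -1.75) and Fgf1 (-1.89 and -2.12). Erbb4, a neuregulin receptor, differed between the references, with 0.27 against the Gldc-gated (edgeR adjusted P = 0.491) and -2.36 against the Slc6a11-gated astrocytes.

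Of 18 adhesion genes listed, 16 were tested, 8 were lower, 1 was higher and the median was -0.39. Over all genes tested, 3.02% were lower and 3.24% higher, with a median of 0.09. In the 80 gated members 5 of 16 were lower. The cadherin genes Cdh20 and Cdh10 were at 420 against 846 and 469 against 825 CPM, and the neural cell adhesion molecule gene Ncam1 at 639 against 1122. Lsamp, the limbic system-associated membrane protein, was at 15031 against 22924 CPM, with a log2 fold change of -0.61 ± 0.11 (edgeR adjusted P = 1.44e-06). The call of Ncam2 held in 6 of the 13 fits that left out a mouse, and the higher gene, Dscaml1, was not called in the 80 gated members (adjusted P = 0.727).

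Of 24 matrix and synapse-organising factors, 16 were tested, 2 were higher and 1 was lower, beside 3.24% and 3.02% of all genes tested, and the median was -0.15. The glypican gene Gpc5 was at 5645 against 11719 CPM and lower in 13 of 13 mice, with a log2 fold change of -1.19 ± 0.11 (edgeR adjusted P = 2.15e-22). Tnc (tenascin C) at 152 against 78.9 CPM and the matrix protease gene Adamts9 at 277 against 164 CPM were higher with total-UMI scaling, while with TMM scaling their adjusted P was 0.128 and 0.112.

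Of 26 growth factor, Notch and Id genes, 21 were tested, 2 were higher, 6 were lower and the median was -0.18, beside 3.24% higher and 3.02% lower of all genes. The lower genes included Fgf1, a fibroblast growth factor, at 46.9 against 165 CPM, with no overlap between the ranges and a log2 fold change of -2.02 ± 0.32 (edgeR adjusted P = 8.84e-08). Erbb4 was at 447 against 1042 CPM and Ptch1, the Hedgehog receptor, at 154 against 349 CPM. Ptch1 lost its call against the Gldc-gated astrocytes, where 2 of 15 tested genes of the list were lower. Vegfa, a vascular growth factor, was at 105 against 219 CPM. Id3 and Id4 were the higher genes, and Id4 was not called with TMM scaling (edgeR adjusted P = 0.204). Id3 passed the filter only with the members' own sums counted, so its call is a description.

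Of 32 reactive astrocyte genes, only C4b and Stat3 had enough UMIs to be tested, and both were higher. Stat3, a transcription factor of cytokine signalling, was at 145 against 70.8 CPM with a log2 fold change of 1.04 ± 0.26 (edgeR adjusted P = 0.00262). Without the members that held other cell types' genes, the adjusted P of Stat3 was 0.229. C4b entered the test through its level in members, so this count is a description. Serpina3n, often used as a marker of reactive astrocytes, had no UMI in the members.

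Of 10 oligodendrocyte genes, 6 were tested and called higher in members of the 13 mice, but Mal, Mobp and Prr5l passed the filter only with the members' own sums counted, so this count is a description. Mbp and St18 passed the filter from the other astrocytes alone. Mbp, myelin basic protein, was at 310 against 108 CPM, but in the members of single mice it ran from 0 to 1502 CPM and only 21 nuclei had a UMI. Without members of high doublet score, 2 of 3 tested were still higher, Mbp and St18, a transcription factor of oligodendrocytes (edgeR adjusted P = 0.00457 and 0.000257), and with TMM scaling 4 of 6 were. None of 5 tested was called in the 80 gated members, where adjusted P for Mbp was 0.985, and with DESeq2 it was 0.597. Leaving out members by their UMIs of this same list, which fixes the outcome, left 3 genes to test and none called. The neuron gene Celf4 and the oligodendrocyte precursor gene Lhfpl3 were each the 1 called gene of their list, and no gene of the microglia, endothelial or mural, choroid plexus or neural stem cell lists was called. Igfbp5, Nrg1, Clu, Trpm3, Slc6a11 and Slc4a4 kept their calls both without members that held other cell types' genes and in the 80 gated members. Neither setting left out nuclei by the neuron list, so the part of neuron RNA in these calls was not tested. C4b kept its call in both settings too, but it entered the test through its level in members, so its calls are a description.

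Of 16 corticosteroid response genes, 9 were tested and 1 was lower, Mertk, a phagocytosis receptor, at 583 against 979 CPM (log2 fold change -0.77 ± 0.15, edgeR adjusted P = 2.04e-05). Zbtb16, a transcription factor induced by glucocorticoids, was at 167 against 155 CPM, and the receptor genes Nr3c1 and Nr3c2 at 217 against 237 and 674 against 709 CPM. Fkbp5, a co-chaperone of the glucocorticoid receptor, was at 31.3 against 19.1 CPM and fell below the filter. Of 18 reproductive hormone and dopamine genes, 6 were tested and none passed. Maob, which degrades dopamine, was at 64.8 against 108 CPM (edgeR adjusted P = 0.184). With TMM scaling 3 genes of this list were lower, Maob among them (adjusted P = 0.0335). Prlr had 2 UMIs in the members, Tgm2, Drd1 and Drd2 had 1 each, and Esr1 had none. Of 14 actin and intermediate filament genes, 5 were tested and none passed; Ank2, a membrane-cytoskeleton adaptor and the gene of the list with the highest CPM, was at 2559 against 2553 CPM.

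**Figure D3:**
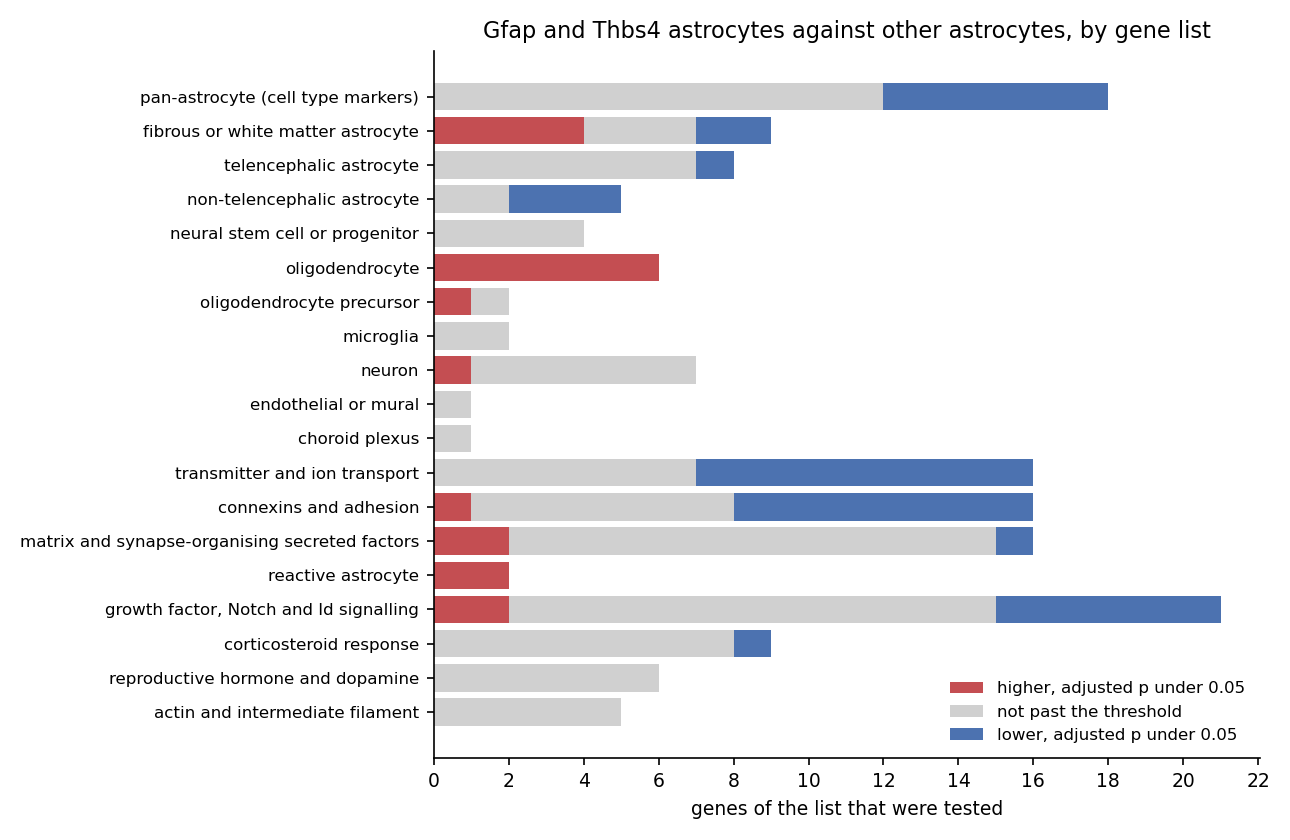
Genes tested in 13 mice in each of the gene lists with at least 1 gene tested (vertical axis), as bars of the number of genes (horizontal axis) higher, not past the threshold and lower in Gfap and Thbs4 astrocytes. Transport genes have 9 lower and none higher of 16, adhesion genes 8 lower of 16, and of the 6 oligodendrocyte genes drawn as higher, 3 passed the filter only with the members' own sums counted.

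The 2 marker genes were also looked at apart. There were 638 nuclei with Gfap but no Thbs4 and 800 with Thbs4 but under 2 Gfap UMIs, and for Igfbp5, Nrg1, Trpm3 and Slc6a11 they lay between other astrocytes and members. Like the members, both classes needed only 3 transporter UMIs, while the other astrocytes passed the stricter gate given above. The classes thus differ in more than Gfap and Thbs4. Slc17a6, for instance, was at 31.2 CPM with Thbs4 alone and 10.7 CPM in other astrocytes. Igfbp5 was at 57.9 CPM in other astrocytes, 124 with Gfap alone, 167 with Thbs4 alone and 344 in members. Nrg1 stood at 194, 270, 834 and 1331 CPM in the same order, so that the Thbs4 class was nearer to the members. Trpm3 stood at 4144, 2236, 1428 and 799 CPM, and Slc6a11 at 611, 282, 186 and 143 CPM. Aqp4 had another order, with 249, 563, 168 and 295 CPM. Within the members, the 31 nuclei at both limits had 823 CPM of Nrg1 and 301 of Igfbp5, and the 17 with at least 3 Gfap and 2 Thbs4 UMIs had 1728 and 435 CPM. Trpm3 was at 802 and 640 CPM in these subsets. These are pooled values, given without a test.

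**Figure D4:**
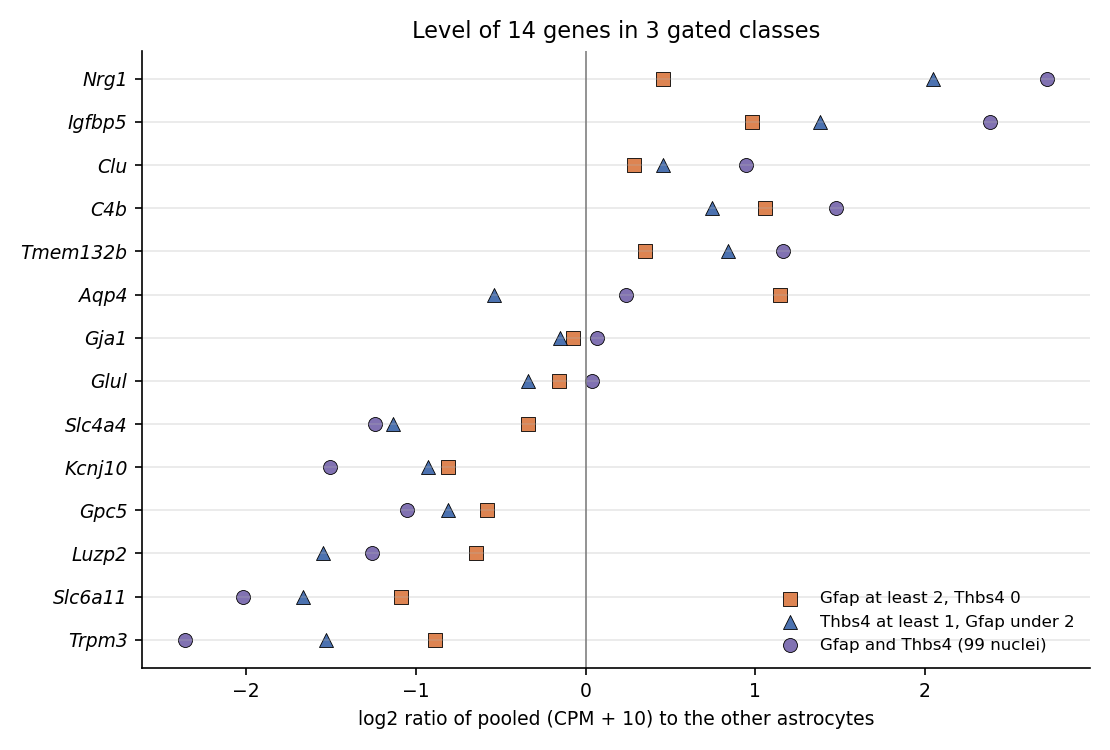
log2 ratio of the pooled level (CPM + 10) in 3 gated classes to that in the other astrocytes, for 14 genes. For Igfbp5 and Nrg1 the members lie furthest to the right, for Trpm3 and Slc6a11 furthest to the left, and Aqp4 is highest in the nuclei with Gfap alone.

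Some genes were strongly concentrated in members but too rare for the filter, and were chosen after their values were seen, so that they are given without a test. Tshr, the thyrotropin receptor, had 45 UMIs in 21 members and stood at 100 CPM against 9.06, with 2.40% of other astrocytes holding a UMI. Ggta1, a galactosyltransferase of the reactive list, was at 69.2 against 9.49 CPM. Enkur, a gene of motile cilia and flagella, was at 49.1 against 3.02 CPM in 13 nuclei, and Sfrp1, a secreted Wnt antagonist, at 31.3 against 3.59 CPM in 12 nuclei. In the members of single mice Tshr ran from 0 to 261 CPM and was higher than in other astrocytes in 10 of 13 mice.

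The second comparison asked whether the number of these astrocytes differed with reproductive experience or stress. Members made up 0.0652% ± 0.0520 (SD, n = 6) of nuclei in NP mice. The mean was 0.0806% ± 0.0424 (n = 4) for control RE mice, and for stress RE mice it was 0.0738% ± 0.0353 (n = 5). The share ran from 0 to 0.154% in NP mice, from 0.0379 to 0.139% in control RE and from 0.0174 to 0.110% in stress RE, so that all groups overlapped. Control RE minus NP came to 0.0154 percentage points, stress RE minus control RE to -0.00685 and stress RE minus NP to 0.00856. In two-sided exact permutation tests, P was 0.638, 0.810 and 0.771, and each adjusted P over 6 tests was 0.857. The few mice per group limit how small P can be in these tests. NP mouse 63 had 0 members among 8599 nuclei, which allows a share of up to 0.0349%.

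As a share of members and other astrocytes together, the groups stood at 1.49% ± 1.12 (SD, n = 6), 1.80% ± 0.706 (n = 4) and 1.93% ± 1.04 (n = 5). The differences were 0.302, 0.138 and 0.440 percentage points in the same order of contrasts, with exact permutation P of 0.648, 0.857 and 0.511. The differences were also taken within batches, which the labels number. Those in the share of nuclei were 0.0247, 0.0329 and 0.0575 percentage points in batch 2 and -0.0127, -0.0184 and -0.0311 in batch 3. All 3 thus had opposite signs in these batches. Those in the share of astrocytes were 0.914, 0.451 and 1.36 in batch 2 and -0.354, 0.426 and 0.0719 in batch 3, where only control RE minus NP changed sign. Batch 1 had no control RE mouse. The mean share itself moved with the batch, with 0.0367% in batch 1, 0.0551% in batch 2 and 0.107% in batch 3.

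**Figure D5:**
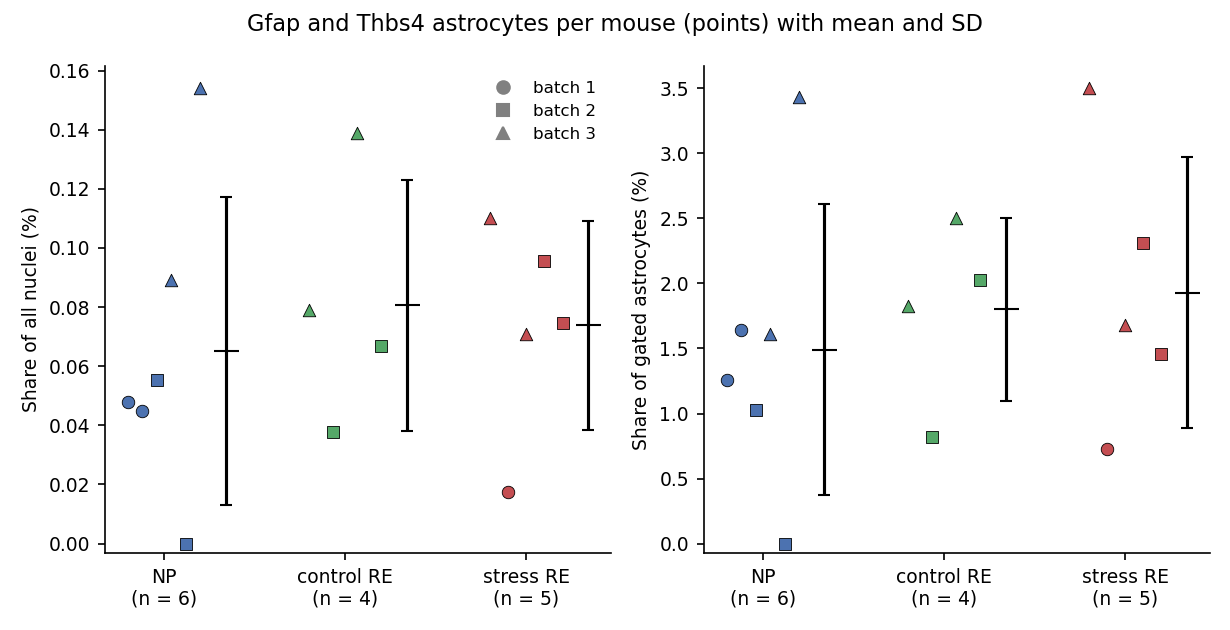
Share of Gfap and Thbs4 astrocytes among all nuclei (left) and among members plus other astrocytes (right) in each of 15 mice, in percent, by group; symbols give the batch, and the horizontal mark with its bar gives the mean and SD. The groups overlap, NP mouse 63 lies at 0, and batch 3 mice lie between 0.0709% and 0.154% of nuclei.

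Across the 15 mice the member share was also set against the share of 3 other kinds of nuclei in the punches. With ependymal-gated nuclei, 0.0930 to 1.10% of nuclei, Pearson's r was 0.51 (permutation P = 0.0509, adjusted over 3 relations 0.124) and Spearman's coefficient 0.54 (permutation P = 0.0394, adjusted 0.118). Without NP mice 35 and 73, r was 0.47, and within batches 2 and 3 it was 0.54 and 0.28. With oligodendrocyte-gated nuclei r was 0.28 (permutation P = 0.305) and Spearman's coefficient 0.33 (permutation P = 0.224), with r of 0.49 in batch 2, -0.71 in batch 3 and 0.32 without stress RE mice 75 and 77. With Slc6a11-gated astrocytes r was 0.46 (permutation P = 0.0824) and Spearman's coefficient 0.42 (permutation P = 0.116). That r fell to 0.20 without NP mice 37 and 73, and was -0.55 and 0.30 within batches 2 and 3. No relation passed after adjustment.

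The third comparison asked whether gene expression in the members differed between groups. No group had 3 mice with 10 members, so the 13 mice with at least 3 were tested, over 508 genes with edgeR and TMM scaling. No gene passed in any contrast (0%, 0% and 0%), and before adjustment P was under 0.05 for 34 genes (control RE against NP), 45 genes (stress RE against control RE) and 26 genes (stress RE against NP). A fit that included the batch also gave 0 in each contrast. DESeq2 also called 0 genes in each, with 27, 39 and 19 at an unadjusted P under 0.05.

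The genes with the smallest P are given as values. For control RE against NP they were Mgll, Mgat5, Meis2, Gria1 and Grin2b. Mgll, which degrades the endocannabinoid 2-AG, was at 222 CPM ± 79.7 (SD, n = 4) in control RE and 670 ± 250 (n = 5) in NP members, and its log2 difference was -1.51 ± 0.38 (edgeR adjusted P = 0.444). Its groups overlapped through NP mouse 35, at 225 CPM. Gria1, an AMPA receptor subunit, was at 669 ± 380 and 266 ± 170 CPM (edgeR adjusted P = 0.672), and Grin2b, an NMDA receptor subunit, at 721 ± 112 and 327 ± 150 (edgeR adjusted P = 0.672). Neuron list genes in the members moved with these, at 2252 ± 788 CPM in control RE (n = 4), 1276 ± 428 in NP (n = 5) and 1131 ± 458 in the tested stress RE mice (n = 4), and their part in the result was not tested. Grin2b is itself 1 of the 9 neuron list genes, so its own rise is counted in that level.

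For stress RE against control RE the genes were Mgat5, Vav3, Epha7, Srgap2 and Meis2. Vav3, a guanine nucleotide exchange factor, was at 58.5 CPM ± 64.5 (n = 4) in stress RE and 382 ± 153 (n = 4) in control RE. The 4 stress RE values were 32.5, 0, 51.8 and 150 CPM and the 4 control RE values 392, 193, 377 and 567 CPM, so the groups did not overlap, and the log2 difference was -2.72 ± 0.67 (edgeR adjusted P = 0.170). Mgat5, an N-glycan branching enzyme, was at 1040 ± 128 and 504 ± 67.6 CPM (edgeR adjusted P = 0.170), and Meis2, a homeobox transcription factor, at 759 ± 246 and 274 ± 76.1 CPM (edgeR adjusted P = 0.216). Without control RE mouse 72, which had 4 members, 9 genes passed for this contrast (Vav3, Epha7, Lingo2, Cacna1c, Ppfia2, Nav3, Gria1, Adarb2 and Grin2a), and with at least 5 members per mouse 7 did. All of them were lower in stress RE, and Gria1 and Grin2a code for glutamate receptor subunits and Cacna1c for a calcium channel subunit. Both settings leave out control RE mouse 72, which had the lowest neuron list level of the control RE mice in its members, at 1289 CPM. Without it that level was 2572 ± 560 CPM in control RE (n = 3) against 1131 ± 458 in stress RE (n = 4), and the part of neuron RNA in these calls was not tested. For stress RE against NP the 5 smallest P belonged to Vav3, Ash1l, Mgll, Pde4b and Kidins220, each with an edgeR adjusted P of 0.883. Pde4b, a cAMP phosphodiesterase, was at 1579 ± 1837 CPM in stress RE (n = 4) and 437 ± 266 in NP (n = 5), and stress RE mouse 77 alone stood at 4299 CPM. The members of that mouse also had the highest oligodendrocyte list level, at 7822 CPM, and with no filter on low counts the genes called for this contrast were Pde4b and St18, an oligodendrocyte gene. The part of oligodendrocyte RNA in these values was not tested.

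Zbtb16, Fkbp5, Prlr, Tgm2, Maob, Drd1 and Drd2 were too low for the tests between groups. Among corticosteroid genes that could be tested, Nr3c2, the mineralocorticoid receptor, was at 667 ± 247 CPM in control RE (n = 4), 712 ± 324 in NP (n = 5) and 563 ± 247 in stress RE (n = 4). Gfap in the members of the tested mice, a gene of the rule and therefore given without a test, was at 703 ± 156, 884 ± 323 and 646 ± 239 CPM in the same order of groups.

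The fourth comparison asked whether a group difference in members differed from that in other astrocytes of the same mice, with a type by group term and the mouse as a block in edgeR. For control RE against NP, Ksr2, Cacna1c and Gria1 passed, each with adjusted P = 0.0493. Gria1 was at 669 CPM in control RE and 266 in NP members, against 793 and 905 in other astrocytes. Cacna1c was at 387 and 105 CPM against 174 and 171. Ksr2, a scaffold protein of Ras signalling, had 20 UMIs in control RE members and 0 in NP members, at least 6.12-fold higher against a floor of 3 counts over the group. For stress RE against control RE, Vav3 passed (edgeR adjusted P = 0.0436), with 58.5 and 382 CPM in members against 320 and 385 in other astrocytes. For stress RE against NP no gene passed. Neuron list genes in the members moved the same way as Gria1, Cacna1c and Ksr2, with 2252 ± 788 CPM in control RE (n = 4) against 1276 ± 428 in NP (n = 5), and as Vav3, with 1131 ± 458 in stress RE (n = 4), and their part was not tested. With batch by type as a term none of the 3 genes passed for control RE against NP, while Vav3 still passed for stress RE against control RE (edgeR adjusted P = 0.0351). None of these 4 calls held with TMM scaling or with no filter on low counts, and leaving out 1 mouse gave 0 to 4, 0 to 5 and 0 to 2 called genes in the 3 contrasts.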

How the data were processed

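Nuclei of dHF punches from 15 mice were sequenced with the 10x 3' v3.1 chemistry. The authors aligned the reads with Cell Ranger (version 7.1.0 in the submitters' processing notes, 7.0.0 in the file headers) to the mm10 reference, and the deposited filtered matrices hold whole UMI counts of 32285 genes per barcode, not normalized. Their later removal of free RNA and doublets is not in these matrices; here Scrublet scores from scanpy 1.11.5 marked doublets, which stayed in and were left out as an alternative. Positions are from GENCODE M21 (GRCm38).

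Barcodes with at least 500 genes were gated on UMIs. Counts were summed per mouse and type and tested with edgeR 4.0.16 (quasi-likelihood, Benjamini-Hochberg adjusted P under 0.05), with DESeq2 1.42.0 as an alternative. CPM was computed from the deposited counts. The design required at least 10 members per mouse; since only 2 mice had them, and the groups could not be fitted, a limit of 3 was added after the data were seen. Comparisons of types were scaled by total UMIs and those of groups by TMM. Scaling by total UMIs was chosen after TMM had been run on the real data, because TMM shifted unchanged genes more in simulated data of this sparsity. Their median log2 was -0.19 with TMM and -0.03 with total UMIs at 3 members per mouse, and -0.18 and -0.09 at 10. The simulated counts were drawn in proportion to total UMIs, so they cannot show which scaling suits the real data. Shares were tested by two-sided exact permutation over mice, correlations with 100000 permutations. The tests were tried on simulated data.

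Named genes were the 10 with the largest log2 fold change in each direction among called genes with at least 20 CPM in the higher type and 1 direction in every mouse with at least 10 nuclei of both types, then 2 to 4 of each list, the 5 smallest P where no gene passed between groups, the genes of the rule, and Fkbp5, Zbtb16, Prlr, Tgm2, Maob, Drd1 and Drd2. Members and gene lists were chosen with earlier results of these data known. Alternatives were other scaling, no filter on low counts, stricter gates, thinning to 2000 UMIs, no mouse block, other reference astrocytes and leaving out each mouse. Results for some genes of the lists are not reported here, though the counts over lists include them.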

Additional observations from a re-analysis of the deposited data

Results flagged for a closer look

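Values of single mice stood far from the rest of their group in 5 of the 39 sets of values examined, where chance gives about 1 in 20; the genes had been named for their small P. In the members of control RE mouse 72, Epha7 was at 129 CPM and Meis2 at 387 CPM, and Srgap2 was at 902 CPM. Mgll was at 225 CPM in NP mouse 35 and Vav3 at 574 CPM in NP mouse 37. Control RE mouse 72 had 4 members and NP mouse 35 had 5.

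The group difference in members departed from that in other astrocytes of the same mice, by the interaction test in edgeR, for 4 genes. For control RE minus NP the fitted log2 interaction was 9.63 for Ksr2, a value that depends on the prior count because NP members had 0 UMIs, 2.43 for Cacna1c and 1.75 for Gria1. For stress RE minus control RE it was -2.58 for Vav3. None of the 4 passed with TMM scaling.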

How the results depend on the processing

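No difference in shares passed its test under any alternative run, but signs changed. With the stricter gate (9 members) the differences in the share of nuclei were -0.00413 for control RE minus NP, 0.000961 for stress RE minus control RE and -0.00317 for stress RE minus NP, and in the share of astrocytes -0.0845 for the first and -0.0268 for the last. With transporters at 0.5% of UMIs or more, stress RE minus NP was -0.00887 of nuclei and -0.0148 of astrocytes, and stress RE minus control RE -0.212 of astrocytes. The last contrast was -0.772 of astrocytes after thinning, and 0.00470 of nuclei without high Scrublet scores and 0.00725 without batch 1. Leaving out 1 mouse gave ranges of -0.00395 to 0.0332, -0.0211 to 0.0125 and -0.00448 to 0.0263 of nuclei, and 0.00320 to 0.689, -0.255 to 0.439 and 0.0475 to 0.826 of astrocytes.

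Between types in 2 mice, genes higher and lower numbered 1 and 10 with DESeq2, 9 and 25 with no filter, 46 and 54 without high Scrublet scores, 14 and 20 against Gldc-gated and 24 and 33 against Slc6a11-gated astrocytes, 12 and 20 after thinning, and 8 and 50 with TMM. In 13 mice they numbered 113 and 156 with DESeq2, 293 and 161 with no filter, 95 and 109 and then 303 and 251 against the 2 subsets, 98 and 93 after thinning, 140 and 126 without members holding other cell types' genes, 111 and 111 in the 80 gated members, and 81 and 386 with TMM. Leaving out 1 mouse gave 144 to 212 and 147 to 183.

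Between groups, no filter gave 1, 7 and 2 calls and 5 members per mouse gave 7 for stress RE minus control RE. Interaction calls were 0, 1 and 0 with no filter, where the call was Gpc5 and Vav3 was lost. They were 1, 6 and 0 with batch by type as a term, where Ksr2, Cacna1c and Gria1 were lost for control RE minus NP and the 1 call was Gabbr2, and 0 in each with TMM. Leaving out 1 mouse gave 0 to 9 calls for stress RE minus control RE between groups, the 9 without control RE mouse 72, and interaction calls of 0 to 4 (4 without NP mouse 35), 0 to 5 (5 without stress RE mouse 90) and 0 to 2. Ptch1 against Gldc-gated astrocytes (-0.49), Rbm20 without other cell types and Slc13a5 with 5 members per mouse lost their calls. The causes were not tested. Batch as a term in the comparison of groups gave 0 calls in each contrast. No paired analysis was possible because the replicate numbers in the labels are mouse numbers that no 2 groups share; the mouse was the block between types, and without that block 221 genes were higher and 173 lower in 13 mice. Fits with at least 20 members per mouse, and without other cell types in 2 mice, could not be run.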
